A study of Mus musculus with 24 samples.

Results

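The genes described here are the nuclear-encoded subunits of the respiratory chain and of ATP synthase, with a few assembly factors that share their symbols. They were chosen by symbol. Single-gene probe sets were taken whose platform symbol began with Ndufa, Ndufb, Ndufc, Ndufs, Ndufv, Uqcr, Cox4 to Cox8 or Atp5, or was Sdha, Sdhb, Sdhc, Sdhd or Cyc1, and each gene was read from its brightest probe set, averaged over the 24 arrays. Of 91 genes that matched, 84 reached a log2 value of 5 on at least 3 arrays, out of 9504 genes tested. The 84 were 33 genes of complex I, 4 of complex II, 9 of complex III, 12 of complex IV, 17 of complex V and 9 assembly factors. Cultured undifferentiated embryonic stem cells of strain 129/Sv were profiled with 1 array per RNA sample, and what set the groups apart was their Hdh alleles. Hdh is an earlier symbol of Htt, the huntingtin gene. The groups were an Hdh knock-out (genotype null, 6 arrays), the knock-in lines Q20 (7 and 16 CAG repeats), Q50 (7 and 45, or 7 and 43 in replicate 3), Q91 (7 and 85) and Q111 (7 and 111) with 3 arrays each, and a control with 7 repeats on both alleles (6 arrays). All groups share the strain and the growth conditions, and no transgene or inducing agent is named in the labels. Titles call the arrays biological replicates. The sources used here do not say if these were separate clones or cultures, and p-values then cover only the spread among the arrays, which may be technical. Groups follow the titles and genotype labels, since the description label names control and knock-out the other way round.

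The respiratory chain passes electrons from NADH through complex I, or from succinate through complex II, to coenzyme Q, then through complex III, cytochrome c and complex IV to oxygen. Complexes I, III and IV pump protons out of the mitochondrial matrix, and complex V, the ATP synthase, makes ATP from their return. Most subunits are encoded in the nucleus and imported, while a few core subunits come from mitochondrial DNA. Undifferentiated mouse embryonic stem cells are known to use both glycolysis and respiration. Huntingtin is a large scaffold protein, and its expanded CAG repeat causes Huntington's disease, in which mitochondrial function has been studied widely.

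The values are log2 GCRMA signals, in which a difference of 1 is a factor of 2. On its strongest probe set Htt read 6.67 to 7.39 in knock-out arrays and 6.67 to 7.69 in knock-in arrays, against 7.45 to 8.25 in control arrays. Its change was -0.80 in the knock-out, -0.47 in Q20, -0.61 in Q50, -1.05 in Q91 and -0.79 in Q111 (limma adjusted p = 0.00195, 0.0777, 0.0544, 0.000565 and 0.00445). This signal therefore does not tell the knock-out from Q91 and Q111, and the sources used here do not name the deleted stretch, so it is no check of the knock-out label. All 8 pluripotency markers checked read 10.50 to 15.77 on every array. Their mean was 13.35 to 13.94 in the 12 knock-in arrays and 13.92 to 14.09 in knock-out arrays, against 13.95 to 14.07 in control arrays. Esrrb averaged 10.84 in Q20, 11.71 in Q50, 10.80 in Q91 and 10.97 in Q111, against 12.21 in control. Sox2, Nanog, Zfp42 and Utf1 also averaged below control in every line. Tdgf1 was above control in every line, and Pou5f1 and Dppa5a went both ways. Of 7 fibroblast markers, Dcn, Lum, Postn and Pdgfra stayed below 5 on every array, while Col1a1 averaged 7.98 in Q20, 4.02 in Q50, 7.48 in Q91 and 8.40 in Q111, against 3.73 in control. Col1a2 averaged 3.65 in Q20, 2.61 in Q50, 4.01 in Q91 and 5.08 in Q111, against 2.68 in control. Thy1 ran the other way, with 4.66 in Q20, 4.29 in Q50, 5.09 in Q91, 5.34 in Q111 and 3.30 in the knock-out, against 5.97 in control. The mean of the fibroblast list was 3.12 to 4.45 in knock-in arrays, against 3.27 to 3.52 in control arrays. The muscle list, in which Ckm, Cox6a2 and Cox8b stayed below 5 and Acta1 averaged 7.94 in Q20, 6.21 in Q50, 10.01 in Q91 and 8.71 in Q111, against 3.99 in control, also held Cox7a1 and Myh6 and had a mean of 4.19 to 5.57 in knock-in arrays, against 4.08 to 4.29 in control arrays. The part of these cell type markers in the results was not tested. In bulk RNA, fewer cells of a type and less RNA per cell cannot be told apart. Q50 replicate 3 stood apart. Its Actb signal was 1.54 higher at the 3' than at the 5' probe set, where the other arrays had differences of 0.75 to 1.03.

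Several whole chromosomes also moved by array. The median of the other genes of chromosome 1, relative to control, was -0.48 to -0.32 in 9 knock-in arrays and 0.13 to 0.22 in Q50 replicate 1, Q91 replicate 1 and Q111 replicate 3. The chromosome 8 median was -0.45 to -0.33 in Q20 replicate 3, Q50 replicate 3, all Q91 arrays and Q111 replicate 3. For chromosome 11 it was 0.39 to 0.49 in all Q20 and Q111 arrays and in Q91 replicate 1. Of the members, 5 lie on chromosome 1, 3 on chromosome 8, 5 on chromosome 11 and 71 elsewhere. Results are therefore also given for those 71 and after centring each array on its chromosome medians, an alternative chosen after seeing the data. The fit with chromosome centring also differs from the main fit in holding 1 probe set per gene. Chromosome 14, which holds no member, had a median of 0.32 to 0.54 in knock-out arrays, and that of X, with 2 members, was 0.08 to 0.24 in knock-in arrays. Control replicate 4 was low on every chromosome, from a median of -0.30 on chromosome 8 to -0.09 on chromosome 2, with -0.20 on chromosome 1. Its median over all genes was -0.14, and the next lowest array, Q91 replicate 2, had -0.05. Leaving out this control gave 29 called members in the lines together, in a fit whose share of all genes is not given. What moved the chromosome medians was not tested.

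Promoter windows from 250 bases before to 50 after the annotated start were found in RefSeq (GRCm38.p6) for 71 of the 84 members, in 76 windows of 300 bases. 4 are shown, those of the genes lower in all 4 knock-in lines that the table holds, and Sdhc is the fifth such gene. The windows were searched on both strands for the cores GCGCATG (NRF1), CCGGAAG (ETS, the family of GABP), AAGATGG (YY1) and AAGGTCA (ERR), which stand for factors long linked to nuclear genes of mitochondria. Capitals mark every match, the sequences run 5′ to 3′ along the gene, and Uqcrc1 has NRF1 matches on both strands that overlap. The Ndufb8 window is chr19:44555393-44555692 on the minus strand, Uqcrc1 chr9:108936398-108936697 on the plus strand, Cox5a chr9:57520982-57521281 on the plus strand and Cox5b chr1:36691237-36691536 on the plus strand.
Ndufb8: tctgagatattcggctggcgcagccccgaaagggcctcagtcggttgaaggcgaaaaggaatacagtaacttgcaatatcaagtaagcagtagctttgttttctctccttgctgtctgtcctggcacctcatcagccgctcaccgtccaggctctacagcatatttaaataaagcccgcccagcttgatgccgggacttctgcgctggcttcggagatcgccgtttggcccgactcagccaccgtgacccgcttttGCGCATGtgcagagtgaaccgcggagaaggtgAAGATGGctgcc
Uqcrc1: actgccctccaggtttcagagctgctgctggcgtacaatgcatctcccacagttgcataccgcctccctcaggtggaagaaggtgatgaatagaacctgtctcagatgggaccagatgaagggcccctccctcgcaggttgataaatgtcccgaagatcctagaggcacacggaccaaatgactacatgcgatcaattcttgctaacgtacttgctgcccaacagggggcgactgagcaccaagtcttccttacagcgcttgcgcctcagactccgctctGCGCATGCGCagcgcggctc
Cox5a: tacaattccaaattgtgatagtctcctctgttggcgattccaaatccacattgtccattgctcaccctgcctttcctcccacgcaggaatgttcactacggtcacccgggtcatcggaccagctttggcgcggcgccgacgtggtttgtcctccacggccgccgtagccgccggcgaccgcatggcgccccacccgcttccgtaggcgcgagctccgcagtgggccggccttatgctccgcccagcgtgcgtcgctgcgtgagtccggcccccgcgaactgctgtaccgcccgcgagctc
Cox5b: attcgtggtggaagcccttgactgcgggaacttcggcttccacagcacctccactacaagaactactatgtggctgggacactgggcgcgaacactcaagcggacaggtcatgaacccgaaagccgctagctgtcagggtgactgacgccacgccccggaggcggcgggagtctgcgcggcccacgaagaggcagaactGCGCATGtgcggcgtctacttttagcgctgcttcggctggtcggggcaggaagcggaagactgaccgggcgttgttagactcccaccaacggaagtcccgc

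The NRF1 core stood in 14 of the 76 member windows (18.4%), against 7.52% of the 9980 windows of tested genes and 3.91% of all 32851 windows. The ERR core was in 9.21% of member windows, against 2.89% and 4.72%, the YY1 core in 14.5%, against 7.58% and 6.34%, and the ETS core in 25.0%, against 19.1% and 8.86%. The Cox5a window held none of the 4 letter strings. Ndufb8 held the NRF1 and YY1 cores, and Uqcrc1 and Cox5b the NRF1 core alone. Apart from Cox5a the shown genes share the NRF1 core, and no string is in all 4. The core also stood in Atp5g2, Atp5k, Atp5l, Ndufa6, Ndufa8, Ndufaf4 and Ndufb6, which were lower in no knock-in line. Of the members lower in 3 lines, Cox6a1 held it, while Atp5j, Atp5j2, Ndufa13, Ndufb3, Ndufb11 and Ndufc1 did not. Whether the core goes with lower values was not tested. The counts are of letters and not of bound sites.

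Respiratory chain genes were lower in the knock-in lines than in control, by small amounts that spread over all 5 complexes. With the 4 lines pooled in 1 contrast, 29 of 84 members fell and 1 rose, against 14.9% of all genes lower and 19.8% higher. In both directions together 30 members were called, against 34.7% of all genes. The median change was -0.17 over the members and 0.01 over all genes, and 75 of the 84 changes lay below 0. Without Q50 replicate 3, 49 members were called in the lines together. The share of all genes in that fit is not given, so the rise is not shown to be particular to the members. Centring each array on its median shifted the changes of the lines together by -0.10, after which 56 members were lower and 0 higher, against 25.3% and 14.6% of all genes, with medians of -0.26 and -0.09. In the knock-out 4 members fell and 1 rose, against 8.81% and 7.55% of all genes (16.4% in either direction), and the medians were -0.04 for the members and -0.02 for all genes. Without control replicate 2 the knock-out count was 3, in a fit whose share of all genes is not given.

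The count varied by line. In Q20, 25 members fell and 0 rose, against 10.4% and 16.3% of all genes (26.7% in either direction). Q50 had 5 lower and 0 higher, against 2.42% and 5.08% (7.5%). In Q91 the counts were 19 lower and 0 higher, against 11.3% and 13.3% (24.6%). Q111 had 26 lower and 1 higher, against 11.1% and 16.4% (27.4%). The median change of the members was -0.18 in Q20, -0.09 in Q50, -0.18 in Q91 and -0.22 in Q111, where all genes had 0.01, 0.03, -0.01 and -0.01. Without Q50 replicate 3 the Q50 count was 12 with a median of -0.23, and without Q50 replicate 2 it was 2. Counts also moved with single arrays elsewhere, to 13 and 16 without Q20 replicates 2 and 3, to 7 and 11 without Q91 replicates 2 and 3, and to 13 and 14 in Q111 without its replicates 1 and 2. For these fits without an array the shares of all genes are not given. With median centring, shifts of -0.11 in Q20 and -0.12 in Q111 gave 38 lower members in Q20, against 18% of all genes, and 47 in Q111, against 20.1%.

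**Figure D1:**
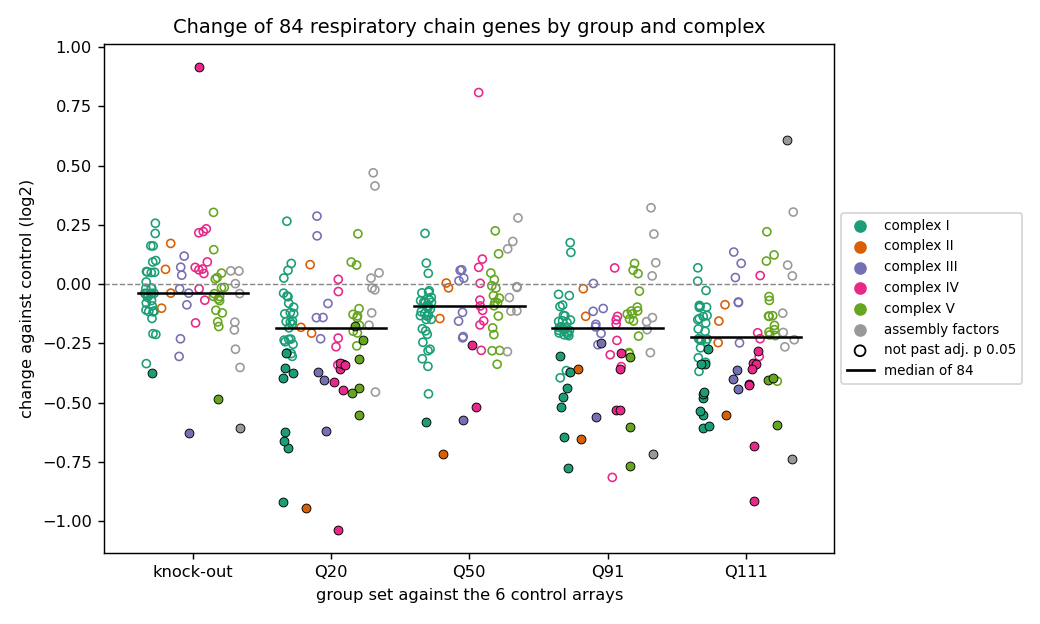
Each point is 1 of the 84 genes, placed by its log2 change against the 6 control arrays (vertical axis) in the knock-out and in each knock-in line (horizontal axis), coloured by complex. Filled points passed a limma adjusted p of 0.05 and bars are medians. The medians lie at -0.04 in the knock-out, -0.18 in Q20, -0.09 in Q50, -0.18 in Q91 and -0.22 in Q111.

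The same shift was visible array by array. The mean over the 84 members, relative to control, was -0.32 to -0.12 in 11 of the 12 knock-in arrays and 0.17 in Q50 replicate 3. It was -0.12 to 0.05 in knock-out arrays, against -0.09 to 0.10 in control arrays. Every knock-in array apart from Q50 replicate 3 thus lay below every control array, while the knock-out arrays overlapped the controls. Counted by member, 61 to 77 of 84 were below their control mean on those 11 knock-in arrays, 23 on Q50 replicate 3 and 31 to 62 on knock-out arrays, against 10 to 67 on control arrays. These counts overlapped, since control replicate 1 had 67 members below, more than Q91 replicate 1 with 61 and Q111 replicate 3 with 66. Over the 71 members off chromosomes 1, 8 and 11 the mean was -0.29 to -0.13 on the same 11 arrays, against -0.10 to 0.11 in control arrays.

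**Figure D2:**
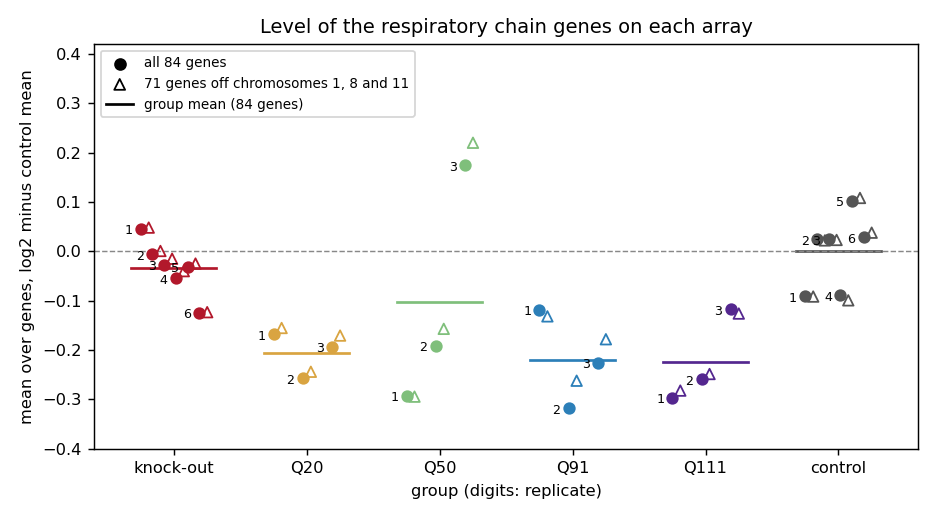
Mean log2 value over the respiratory chain genes on each array minus the control mean (vertical axis), by group, with replicate numbers beside the points. Filled circles are all 84 genes and open triangles the 71 genes off chromosomes 1, 8 and 11. 11 knock-in arrays lie at -0.32 to -0.12, Q50 replicate 3 lies at 0.17 and control arrays lie at -0.09 to 0.10.

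5 members passed the threshold as lower in all 4 lines, and they came from complexes I, II, III and IV. They were Ndufb8, Sdhc, Uqcrc1, Cox5a and Cox5b. Only Uqcrc1 kept its call in every line in all 20 other settings. The Q50 call was lost in 6 of 20 other settings for Cox5a and for Cox5b, in 5 for Sdhc and in 1 for Ndufb8. Sdhc also lost its call in 4 settings in Q111 and 3 in Q91, Ndufb8 in 2 in Q111 and Cox5b in 2 in Q91. A further 8 were lower in 3 lines, 11 in 2 and 9 in 1, while 51 were lower in none. The lines share the 6 control arrays, and this tally is not given for all genes. Whether 5 of 84 is unusual was not tested. In 6 members all 12 knock-in arrays lay below all 6 control arrays, against 0.979% of all genes. These were Ndufb8, Uqcrc1, Cox5a, Cox5b, Cox6a1 and Atp5o.

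Complex I takes electrons from NADH, and its matrix arm carries the redox centres while its membrane arm pumps protons. Of its 33 members 9 fell in the lines together (27.3%, against 14.9% of all genes) and 0 rose (against 19.8%), with a median of -0.18. In either direction 34.7% of all genes were called. Ndufb8 encodes an accessory subunit of the membrane arm. Ndufb8 read 11.58, 11.37 and 11.46 in Q20, 11.45, 11.41 and 11.80 in Q50, 11.75, 11.47 and 11.25 in Q91 and 11.55, 11.63 and 11.86 in Q111, against 11.88 to 12.33 (median 12.15) in control arrays. All knock-in arrays were below all control arrays, and Q111 replicate 3 was the highest of them. Its change was -0.66 in Q20, -0.58 in Q50, -0.64 in Q91 and -0.46 in Q111 (adjusted p = 0.000625, 0.00668, 0.000764 and 0.00939, limma), and -0.59 ± 0.09 (SE, limma adjusted p = 3.81e-05) for the lines together, which is 66.6% of the control level. Knock-out arrays read 11.92 to 12.27 (median 12.16) and overlapped the controls (change 0.01). Ndufb3 is another membrane arm subunit, on chromosome 1. Ndufb3 read 10.84, 10.77 and 10.84 in Q20, 11.04, 10.78 and 11.32 in Q50, 11.35, 10.73 and 10.89 in Q91 and 10.67, 10.60 and 11.46 in Q111, against 11.39 to 11.68 (median 11.49) in control arrays. The 3 highest knock-in values were Q50 replicate 3, Q91 replicate 1 and Q111 replicate 3, of which the last 2 had no low chromosome 1 median, and Q111 replicate 3 overlapped the controls. Over the 4 lines the change was -0.57 ± 0.11 (SE, limma adjusted p = 0.000544). It was called in Q20, Q91 and Q111, and with chromosome centring its Q20 and Q91 calls were lost.

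Ndufb11, also of the membrane arm, is X-linked. Ndufb11 read 11.87, 11.75 and 11.84 in Q20, 11.47, 11.80 and 12.43 in Q50, 11.80, 11.77 and 11.76 in Q91 and 11.70, 11.69 and 11.82 in Q111, against 11.97 to 12.36 (median 12.25) in control arrays. Q50 replicate 3 was above all controls, and the other 11 knock-in arrays were below all of them. The pooled change of the lines was -0.41 ± 0.10 (SE, limma adjusted p = 0.0031). Its calls in Q20, Q91 and Q111 were lost in 11, 7 and 3 of 20 other settings. With chromosome centring, which takes out the raised X median of the knock-in arrays, the change was -0.58 (limma adjusted p = 6.1e-05). Ndufc1 is a small subunit of the same arm. Ndufc1 read 11.91, 12.09 and 11.93 in Q20, 11.95, 11.93 and 12.49 in Q50, 12.01, 11.89 and 11.99 in Q91 and 11.95, 11.89 and 12.15 in Q111, against 12.23 to 12.46 (median 12.35) in control arrays. Again Q50 replicate 3 was the single knock-in array above the controls. In the lines together it changed by -0.32 ± 0.09 (SE, limma adjusted p = 0.00774). Its calls in Q20, Q91 and Q111 lay near the threshold (adjusted p = 0.0396, 0.0344 and 0.0483, limma) and were lost in 11, 10 and 11 of 20 other settings. Ndufa13, known also as GRIM-19, is an accessory subunit encoded on chromosome 8. Ndufa13 read 11.98, 11.73 and 11.37 in Q20, 11.67, 12.04 and 12.04 in Q50, 11.19, 11.30 and 11.38 in Q91 and 11.67, 11.62 and 11.26 in Q111, against 11.91 to 12.24 (median 12.05) in control arrays. The lowest 5 knock-in values were those of the Q91 arrays, Q111 replicate 3 and Q20 replicate 3, which were among the arrays with a low chromosome 8 median, while Q20 replicate 1 and Q50 replicates 2 and 3 overlapped the controls. Over the 4 lines the change was -0.46 ± 0.09 (SE, limma adjusted p = 0.000571). Its Q20 call was lost in 10 of 20 other settings, chromosome centring among them, with adjusted p up to 0.273 (limma). The other complex I members that fell in the lines together were Ndufa10 (-0.57), Ndufs1 (-0.42), Ndufs3 (-0.27) and Ndufa12 (-0.27). Ndufs1 and Ndufs3 are core subunits of the matrix arm, and Ndufs1 holds iron-sulfur clusters. Ndufa10 and Ndufs1 lie on chromosome 1, and the Ndufs1 call was lost with chromosome centring.

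Complex II, succinate dehydrogenase, also works in the citric acid cycle and has nuclear-encoded subunits only. All 4 were measured. Sdhc is one of the membrane anchors and lies on chromosome 1. Sdhc read 11.92, 11.74 and 12.01 in Q20, 12.54, 11.92 and 11.90 in Q50, 12.51, 12.08 and 11.96 in Q91 and 12.08, 11.99 and 12.79 in Q111, against 12.54 to 13.06 (median 12.86) in control arrays. Q111 replicate 3 lay within the control range, Q50 replicate 1 and Q91 replicate 1 lay just below it, and the other 9 arrays were at 12.08 or less. Its change was -0.95 in Q20, -0.72 in Q50, -0.65 in Q91 and -0.55 in Q111 (adjusted p = 0.000609, 0.0158, 0.0103 and 0.0237, limma), and -0.72 ± 0.12 (SE, limma adjusted p = 0.000169) for the lines together, which is 60.8% of the control level. Those 3 higher arrays are the ones without a low chromosome 1 median. With chromosome centring the lines together changed by -0.44 (limma adjusted p = 5.72e-06). Sdhd, the other anchor, had -0.0050 ± 0.053 (SE, limma adjusted p = 0.954) in the lines together and was called in no line. Sdhb, the iron-sulfur subunit, fell in Q91, with -0.36 ± 0.12 (SE, limma adjusted p = 0.0381), and had -0.23 ± 0.09 (SE, limma adjusted p = 0.0407) in the lines together, a call lost in 16 of 28 other settings. Sdha, the flavoprotein that oxidises succinate, had -0.13 ± 0.05 (SE, limma adjusted p = 0.0744).

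Complex III passes electrons from coenzyme Q to cytochrome c. Of its 9 members 3 fell in the lines together (33.3%, against 14.9% of all genes) and 0 rose (against 19.8%), with a median of -0.17. Uqcrc1 is core protein 1 of the complex, on chromosome 9. Uqcrc1 read 11.75, 11.60 and 11.75 in Q20, 11.85, 11.88 and 11.50 in Q50, 11.78, 11.84 and 11.64 in Q91 and 11.81, 11.90 and 11.91 in Q111, against 12.08 to 12.43 (median 12.36) in control arrays. All 12 knock-in arrays were below all 6 controls. Its change was -0.62 in Q20, -0.57 in Q50, -0.56 in Q91 and -0.44 in Q111 (adjusted p = 0.00026, 0.00227, 0.000571 and 0.00323, limma), and -0.55 ± 0.07 (SE, limma adjusted p = 1.2e-05) for the lines together, which is 68.3% of the control level. Knock-out arrays read 12.12 to 12.48 (median 12.25) and overlapped the controls, with a change of -0.04. The others that fell were Uqcrb (-0.28) and Uqcrfs1 (-0.17), the Rieske iron-sulfur protein.

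Complex IV, cytochrome c oxidase, hands electrons to oxygen, and its nuclear-encoded subunits surround a core made from mitochondrial DNA. It had the lowest median of the complexes in the lines together, -0.27. That order among complexes was not tested. Of its 12 members 7 were lower (58.3%, against 14.9% of all genes) and 0 higher (against 19.8%). In the knock-out its median was 0.07. Cox5a encodes a matrix-side subunit. Cox5a read 14.59, 14.68 and 14.70 in Q20, 14.67, 14.77 and 14.78 in Q50, 14.61, 14.68 and 14.62 in Q91 and 14.67, 14.71 and 14.76 in Q111, against 14.93 to 15.11 (median 14.98) in control arrays. The knock-in values were all below the control values. Its change was -0.34 in Q20, -0.26 in Q50, -0.36 in Q91 and -0.28 in Q111 (adjusted p = 0.000997, 0.0209, 0.000602 and 0.00351, limma), and -0.31 ± 0.05 (SE, limma adjusted p = 4.74e-05) for the lines together, which is 80.7% of the control level. Knock-out arrays read 14.98 to 15.11 (median 15.02) and overlapped the controls. Cox5b encodes a zinc-binding subunit and lies on chromosome 1. Cox5b read 12.94, 12.96 and 12.84 in Q20, 13.49, 13.21 and 13.60 in Q50, 13.74, 13.18 and 13.33 in Q91 and 12.69, 12.91 and 13.51 in Q111, against 13.84 to 14.07 (median 13.95) in control arrays. No knock-in array reached the lowest control, and the highest were Q91 replicate 1, Q50 replicate 3 and Q111 replicate 3. Its change was -1.04 in Q20, -0.52 in Q50, -0.53 in Q91 and -0.92 in Q111 (adjusted p = 4.23e-05, 0.0276, 0.0095 and 0.000102, limma), and -0.75 ± 0.10 (SE, limma adjusted p = 1.19e-05) for the lines together, which is 59.4% of the control level. With chromosome centring the change of the lines together was -0.47 (limma adjusted p = 5.75e-05) and the Q50 call was lost, as it was in 6 of 20 other settings in all.

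Cox4i1 is the ubiquitous form of subunit 4 and lies on chromosome 8. Cox4i1 read 14.29, 13.98 and 13.89 in Q20, 14.36, 14.42 and 13.99 in Q50, 13.999, 13.78 and 13.86 in Q91 and 13.99, 14.09 and 13.88 in Q111, against 14.19 to 14.56 (median 14.45) in control arrays. Q20 replicate 1 and Q50 replicates 1 and 2 lay within the control range, and all other knock-in arrays were below it. The pooled change of the lines was -0.37 ± 0.08 (SE, limma adjusted p = 0.00119). The Q91 call was lost with chromosome centring. Cox6a1 is the non-muscle form of subunit 6a. Cox6a1 read 14.09, 13.84 and 14.10 in Q20, 13.89, 14.24 and 14.30 in Q50, 14.14, 14.10 and 14.15 in Q91 and 14.03, 13.998 and 14.24 in Q111, against 14.30 to 14.57 (median 14.39) in control arrays. Knock-in arrays were all below the controls, Q50 replicate 3 only just. In the lines together it changed by -0.33 ± 0.07 (SE, limma adjusted p = 0.0011). Of the remaining members Cox6c (-0.30), Cox8a (-0.29) and Cox6b1 (-0.23) fell in the lines together. Cox7a1, known as the heart and muscle form, had a signal of 8.02 averaged over all arrays and passed no comparison with control.

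**Figure D3:**
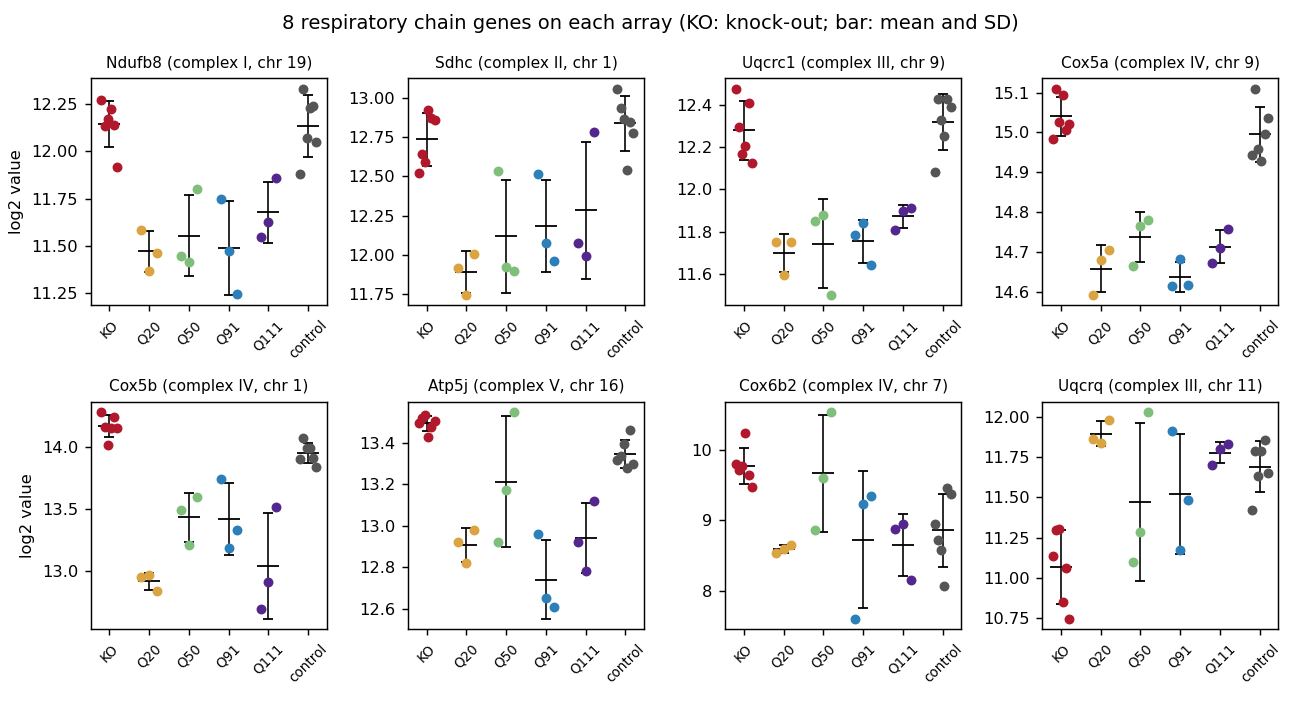
Log2 value (vertical axis, its own range in each panel) of 8 respiratory chain genes on each of the 24 arrays, by group (horizontal axis), with the mean and SD of each group. Knock-in points lie below the controls in Ndufb8, Uqcrc1, Cox5a and Cox5b, and 1 knock-in array lies within the control range in Sdhc and 1 above it in Atp5j. Knock-out points lie below the controls in Uqcrq. In Cox6b2 they lie above, with the lowest knock-out and the highest control both at 9.47.

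Complex V makes ATP, with a catalytic head, a rotor and a stalk that holds them together. Of its 17 members 7 fell in the lines together (41.2%, against 14.9% of all genes) and 0 rose (against 19.8%), with a median of -0.13. Atp5j encodes coupling factor 6 of the peripheral stalk. Atp5j read 12.92, 12.82 and 12.98 in Q20, 12.92, 13.17 and 13.54 in Q50, 12.96, 12.66 and 12.61 in Q91 and 12.92, 12.78 and 13.12 in Q111, against 13.28 to 13.46 (median 13.33) in control arrays. Q50 replicate 3 was above all controls, and the other 11 knock-in arrays were below them. Over the 4 lines the change was -0.40 ± 0.08 (SE, limma adjusted p = 0.000557). Knock-out arrays read 13.43 to 13.53 (median 13.50). Atp5j2 encodes subunit f of the membrane part. Atp5j2 read 13.69, 13.53 and 13.58 in Q20, 13.58, 13.85 and 14.08 in Q50, 13.57, 13.57 and 13.68 in Q91 and 13.47, 13.53 and 13.56 in Q111, against 13.82 to 13.998 (median 13.92) in control arrays. Here Q50 replicate 3 was likewise above the controls and Q50 replicate 2 within their range. The pooled change of the lines was -0.27 ± 0.06 (SE, limma adjusted p = 0.00202). Atp5o, the OSCP protein at the top of the stalk, ran over 12.72 to 13.68 in the knock-in arrays, against 13.68 to 13.91 (median 13.79) in control arrays, and changed by -0.48 ± 0.11 (SE, limma adjusted p = 0.00172). The other members that fell were Atp5e (-0.41), Atp5d (-0.22), Atp5a1 (-0.15) and Atp5g3 (-0.14). Atp5a1 is a subunit of the catalytic head, and another of its probe sets was called in the opposite direction in the same comparison. Atp5b, the catalytic subunit itself, had -0.12 ± 0.05 (SE, limma adjusted p = 0.06). The Atp5g3 call was lost with chromosome centring.

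The 9 assembly factors are 8 Ndufaf genes, which help to build complex I, and Cox7a2l, which takes part in joining complexes into supercomplexes. In the lines together 1 fell (11.1%, against 14.9% of all genes), 1 rose (11.1%, against 19.8%) and the median was -0.04. Ndufaf5, which modifies a complex I core subunit, changed by -0.55 ± 0.12 (SE, limma adjusted p = 0.00175). Ndufaf6 is an early assembly factor. Ndufaf6 read 10.24, 10.002 and 10.03 in Q20, 9.40, 9.53 and 10.05 in Q50, 10.35, 10.05 and 9.60 in Q91 and 10.27, 10.12 and 10.46 in Q111, against 9.18 to 9.90 (median 9.79) in control arrays. Q20 and Q111 arrays were all above the controls, while Q50 and Q91 overlapped them. In the lines together it changed by 0.33 ± 0.12 (SE, limma adjusted p = 0.0424). Its Q111 change was 0.61 ± 0.17 (SE, limma adjusted p = 0.0135), and the call for the lines together was lost in 16 of 28 other settings. The rest had values of -0.19 (Ndufaf7), -0.09 (Ndufaf2), -0.07 (Ndufaf1), -0.04 (Ndufaf4), 0.07 (Ndufaf3), 0.10 (Cox7a2l) and 0.14 (Ndufaf8).

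The knock-out comparison asks which members differ in the cells labelled null for Hdh. Cox6b2 rose, and Ndufaf4, Uqcrq, Atp5g1 and Ndufb10 fell, with 51 of 84 members below 0. Cox6b2 is known as the testis form of a complex IV subunit. Cox6b2 read 9.47 to 10.24 (median 9.75) in knock-out arrays, against 8.06 to 9.47 (median 8.84) in control arrays. The lowest knock-out array equalled the highest control to 2 decimals and the groups did not overlap. The change was 0.92 ± 0.30 (SE, limma adjusted p = 0.043). The call was lost in 14 of 23 other settings. In the knock-in arrays its values ran from 7.60 to 10.54. Ndufaf4 is an assembly factor of complex I. Ndufaf4 read 9.34 to 9.73 (median 9.56) in knock-out arrays, against 10.02 to 10.33 (median 10.15) in control arrays. No knock-out array reached the lowest control. The change was -0.61 ± 0.11 (SE, limma adjusted p = 0.000807). Uqcrq is a small subunit of complex III, on chromosome 11. Uqcrq read 10.74 to 11.31 (median 11.10) in knock-out arrays, against 11.42 to 11.86 (median 11.72) in control arrays. The groups did not overlap. The change was -0.63 ± 0.14 (SE, limma adjusted p = 0.00615). The chromosome 11 median was -0.32 to -0.12 in knock-out arrays, and the call remained with chromosome centring. Atp5g1, a gene for the rotor's c subunit and also on chromosome 11, changed by -0.48 ± 0.12 (SE, limma adjusted p = 0.0105). Ndufb10, a membrane arm subunit of complex I, changed by -0.38 ± 0.11 (SE, limma adjusted p = 0.025). With only replicates 1 to 3 or only replicates 4 to 6 of both groups, 1 member was called in each case. These 2 fits have fewer arrays, and their shares of all genes are not given.

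The lines and the knock-out were also compared with each other, which tests whether their changes against the shared controls differ. 31 members were lower in the lines and 6 higher, against 21.2% and 27.9% of all genes (49.1% in either direction), with medians of -0.15 for the members and 0.03 for all genes. Cox5b (-0.97 ± 0.10, SE, limma adjusted p = 1.63e-07), Ndufa13 (-0.72 ± 0.09, SE, limma adjusted p = 2.07e-06) and Cox5a (-0.35 ± 0.05, SE, limma adjusted p = 3.83e-06) were among those with the smallest p, as was Ndufs3 (-0.48 ± 0.06, SE, limma adjusted p = 3.4e-06). In 10 members all 12 knock-in arrays lay below all 6 knock-out arrays, against 4.48% of all genes. The members higher in the lines were led by Ndufaf4 (0.57 ± 0.09, SE, limma adjusted p = 4.67e-05), Ndufaf6 (0.68 ± 0.12, SE, limma adjusted p = 0.000125), Uqcrq (0.60 ± 0.13, SE, limma adjusted p = 0.000523) and Atp5g1 (0.39 ± 0.11, SE, limma adjusted p = 0.00418). The last 2 lie on chromosome 11, and with chromosome centring neither was called and only 2 members stayed higher, while 42 were lower, against 24.8% and 22.7% of all genes (47.4% in either direction).

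Within the 12 knock-in arrays the members were also set against CAG length. The slope on the longer allele, from 16 to 111 repeats, was called for 0 of 84 members, against 0.0526% of all genes, and 1 member had an unadjusted p under 0.05. That member was Cox7c, a small complex IV subunit, at -0.73 ± 0.25 (SE) per 100 repeats with a limma adjusted p of 0.895. The median slope over the members was -0.05. An F-test (limma) across the 4 lines called 0 members, against 0.116% of all genes, and 2 had an unadjusted p under 0.05. These were Ndufa4 (adjusted p = 0.302) and Ndufa13 (adjusted p = 0.303), picked out after their values were seen. The slope and the F-test compare values gene by gene and not counts of called members. Whether the lower counts in Q50 and Q91 differ from those in Q20 and Q111 was not tested. Repeat length and line cannot be told apart, since each line has nearly 1 length.

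Members on chromosomes 1, 8 and 11 moved with the medians of those chromosomes. On chromosome 1 the mean of Cox5b, Ndufb3, Ndufs1, Ndufa10 and Sdhc was -0.96 to -0.38 on the 9 knock-in arrays with a low chromosome median, and -0.22 to -0.12 on the other 3. Across the 24 arrays, as a description, Pearson's r between the members' mean and the median of the other genes was 0.898 for chromosome 1, 0.855 for chromosome 8 and 0.823 for chromosome 11. These points share arrays and normalization. The 5 chromosome 1 members together had a mean below that median on each of the 12 knock-in arrays. On chromosome 8, Ndufa13, Cox4i1 and Ndufb7 had a mean of -0.66 to -0.22 on the 6 arrays with a low median and -0.24 to 0.03 on the other 6. For the chromosome 11 members, Uqcr10, Uqcrq, Atp5g1, Atp5h and Ndufaf8, the mean was 0.09 to 0.39 on the 7 knock-in arrays with a high median and -0.50 to 0.31 on the other 5. Off these chromosomes, 22 of 71 members were lower in the lines together and 1 higher, with a median of -0.15. Of all 7637 genes not placed on these chromosomes, those of chromosome 14 included, 13.8% were lower and 19.4% higher, with a median of 0.01. By line the lower counts among the 71 were 18 in Q20 (25.4%), 3 in Q50 (4.23%), 13 in Q91 (18.3%) and 19 in Q111 (26.8%), against 9.48%, 2.29%, 9.43% and 11.2% of those genes. With chromosome centring of all genes, 39 of 84 were lower and 1 higher in the lines together, against 16.7% and 19.2% of all genes (35.9% in either direction), and 27 of the 29 members lower before were among them.

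**Figure D4:**
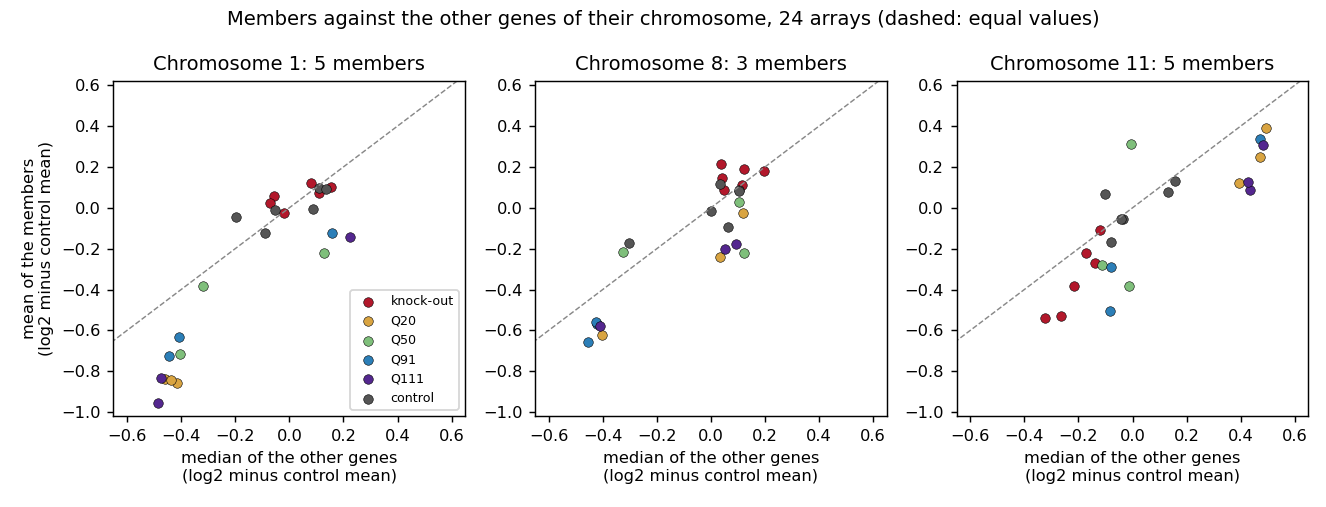
Mean of the members on chromosomes 1, 8 and 11 (vertical axis) against the median of the other genes of that chromosome (horizontal axis), both in log2 minus the control mean, with 1 point per array and colours for groups. The dashed line marks equal values, and 9 knock-in arrays sit at -0.48 to -0.32 on the horizontal axis of chromosome 1.

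Other genes of the same pathway were counted in the same way, and the shares of all genes for the lines together were 14.9% lower and 19.8% higher. Of 28 further assembly factors, 6 fell (21.4%) and 3 rose (10.7%), with a median of -0.08, among them Bcs1l (-0.64 ± 0.14, SE, limma adjusted p = 0.0012), which inserts the Rieske protein into complex III, and Cox20 (-0.51 ± 0.11, SE, limma adjusted p = 0.00171), a complex IV chaperone. Both lie on chromosome 1. Of 15 genes of electron carriers and coenzyme Q synthesis, 4 fell (26.7%) and 1 rose (6.67%), with a median of -0.07. Coq8a (-0.91 ± 0.22, SE, limma adjusted p = 0.00351) and Coq9 (-0.79 ± 0.11, SE, limma adjusted p = 3.05e-05), both needed for coenzyme Q synthesis, lie on chromosomes 1 and 8. Among 16 regulators of mitochondrial genes, 4 fell (25.0%) and 0 rose, with a median of -0.08, led by Esrrb (-1.13 ± 0.16, SE, limma adjusted p = 1.98e-05), a nuclear receptor that is also a pluripotency factor, and Polrmt (-0.32 ± 0.06, SE, limma adjusted p = 0.000245), the RNA polymerase of mitochondria.

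In the mitochondrial ribosome 14 of 76 genes fell (18.4%, near the 14.9% of all genes) and 1 rose (1.32%, against 19.8%) in the lines together, with a median of -0.10, including Mrps31 (-0.44 ± 0.08, SE, limma adjusted p = 0.000353) and Mrpl19 (0.82 ± 0.10, SE, limma adjusted p = 5.56e-06), both ribosomal proteins. In the knock-out 20 of the 76 were lower (26.3%) and 3 higher (3.95%), against 8.81% and 7.55% of all genes, with a median of -0.21. The cytosolic ribosome, whose genes also give strong signals, had 6 of 46 lower (13.0%, near the 14.9% of all genes) and 0 higher in the lines together, with a median of -0.05 and with Rpl37a (-0.31 ± 0.07, SE, limma adjusted p = 0.00131) and Rps24 (-0.20 ± 0.05, SE, limma adjusted p = 0.00495) at the smallest p. Differences between these lists were not tested. Of genes in mitochondrial DNA only ND5, a complex I core subunit, was measured, at 0.09 ± 0.10 (SE, limma adjusted p = 0.514) in the lines together.

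Of the 84 members all were at 5 or more on every array and 74 at 10 or more, so none passed through a single group. The highest means over all arrays were those of Cox5a (14.85), Atp5b (14.66) and Atp5g3 (14.36), and the lowest those of Ndufb1 (6.07), Cox7c (7.09) and Cox7a1 (8.02). Probe sets differ in their probes, so these signals give no order of RNA amounts between genes. The 7 genes of the rule that did not pass were at 5 on 0 of 24 arrays. They were Ndufb4, a complex I subunit whose highest array read 1.86, Ndufa4l2, and the complex IV genes Cox4i2, Cox6a2, Cox7b2, Cox8b and Cox8c. Cox6a2 and Cox8b are the muscle forms of their subunits. A single probe set stood for Ndufb4, and its RNA level is not known from this value. Of the 44 members with several probe sets, 15 were called in the lines together, and in 14 of these all probe sets had the same sign.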

How the data were processed

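Total RNA of 24 mouse embryonic stem cell samples was hybridised to Affymetrix mouse arrays. The deposited values are log2 signals of 45101 probe sets, for which the submitters' processing notes name GCRMA, a method that corrects background by probe sequence, normalizes arrays to each other and summarises probes. The sources used here do not say in which version, or whether on all arrays at once. Groups followed the titles and genotype labels.

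After 64 AFFX probe sets were left out, the 17980 that reached 5 in log2 on 3 or more arrays entered 1 fit with a mean per group (R 4.3.3, limma 3.58.1, 18 residual degrees of freedom). Moderated two-sided tests were adjusted by Benjamini-Hochberg over all of them, with a threshold of 0.05. The number of arrays limits the precision. Single-gene probe sets were named from GEO's platform annotation, and the one with the highest mean stood for its gene, giving 9504 genes. Fits with chromosome centring held only these 9504 probe sets, and their tests were adjusted over them. With the same 9504 and no centring, all 83 results for named genes kept their direction and call. Slopes on CAG length and the F-test used the 12 knock-in arrays. Chromosomes and promoters came from RefSeq tables of GRCm38.p6. The fits were also run on simulated data with independent noise and no chromosome shifts. Recovery there of changes as small as those seen here is not given. Ribosomal protein kinases (Rps6k) were dropped from the cytosolic ribosome list after their values were seen.

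Named genes were the called members with the 6 smallest p per direction against control (4 for the lines against the knock-out), all called alike in at least 3 of 5 comparisons, complex II, the assembly factors, the 2 smallest p of each other list, and the 3 highest and lowest means. The members, lists and rules were chosen with earlier results of these data known. Alternatives changed the normalization, the filter, the choice of controls, the groups in the fit and the arrays left out.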

Additional observations from a re-analysis of the deposited data

Results flagged for a closer look

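The changes of the 4 knock-in lines and of the knock-out against the shared controls differed by a direct limma test for 37 members. In the same test 49.1% of all genes were called, so the count alone does not set the members apart. By direction, 36.9% of the members were lower in the lines, against 21.2% of all genes, and 7.14% higher, against 27.9%. With the knock-in lines minus the knock-out as the direction, the differences named were -0.97 for Cox5b, -0.72 for Ndufa13, -0.48 for Ndufs3 and -0.35 for Cox5a, and 0.57 for Ndufaf4, 0.68 for Ndufaf6, 0.60 for Uqcrq and 0.39 for Atp5g1. In log2 against control, Cox5b had -0.75 in the lines and 0.22 in the knock-out, while Uqcrq had -0.03 in the lines and -0.63 in the knock-out. Cox5b lies on chromosome 1, Ndufa13 on chromosome 8 and Uqcrq and Atp5g1 on chromosome 11, whose medians also moved between these arrays, and the part of those medians was not tested beyond the centred values given with the results. In 36 tests of the named members on the groups of 6 arrays, 0 arrays stood apart by Dixon's criterion. Groups of 3 were not tested this way.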

How the results depend on the processing

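Counts are of members past an adjusted p of 0.05 in either direction, by limma. Those that moved by over 1.5 times were these. In the knock-out comparison, 5 members became 10 when only these groups were fitted, 8 with chromosome centring, and 1 with replicates 1 to 3 alone or 4 to 6 alone. For Q20, 25 became 38 with median centring and 12 with control replicates 4 to 6 only. For Q50, 5 became 9 with quantile normalization or median centring, 10 with chromosome centring, 3 with control replicates 1 to 3 and 2 with control replicates 4 to 6 or with these groups alone. For Q91, 19 became 12 with control replicates 1 to 3 and 9 with 4 to 6. For Q111, 27 became 48 with median centring and 16 with control replicates 4 to 6. For the lines together, 30 became 56 with median centring, 19 with control replicates 1 to 3 and 17 with 4 to 6. The slope on CAG length called 0 members, and 2 when the controls entered at 7 repeats. All genes moved too. With median centring 25.3% of them were lower in the lines together, against 14.9% before. With chromosome centring 1498 were called in the knock-out, against 1555 before, and 839 in Q50, against 713. For quantile normalization, 3 controls, these groups alone, the replicate block and arrays left out, no count over all genes is given. Median centring shifts every change down, and the settings with 3 controls have fewer arrays. The cause of the other moves was not tested.

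With the replicate number as a block, 2 members were called for Q50, and the counts were 4 for the knock-out, 18 for Q20, 13 for Q91, 21 for Q111, 22 for the lines together, 29 for the lines against the knock-out and 0 for the slope. Same-numbered deviations of knock-out and control arrays correlated at -0.41 to -0.26, and 4 of 18 knock-out and knock-in arrays correlated best with the control array of their own number, so the numbers were not taken to pair any line or the knock-out with control. Among the lines, same-numbered arrays did deviate together in Q20 and Q111 (0.39 to 0.46) and in Q50 and Q91 (0.20 to 0.41, 3 of 3 pairs over 0.1 in both), and not in every pair of the other line combinations.

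With each array left out in turn, the counts ran from 3 to 6 for the knock-out, 13 to 25 for Q20, 2 to 12 for Q50, 7 to 21 for Q91, 13 to 28 for Q111, 25 to 49 for the lines together and 33 to 50 for the lines against the knock-out, and stayed at 0 for the slope and the F-test. The median change ran from -0.05 to -0.01, -0.22 to -0.17, -0.23 to 0.0066, -0.22 to -0.15, -0.28 to -0.19, -0.19 to -0.15 and -0.18 to -0.13 in the same order, and -0.10 to 0.01 for the slope.

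Over 83 results for named genes and 1899 settings, 1695 kept their direction and call, 202 lost the call and 2 changed sign. Those 2 were Atp5g1 at -0.050 and Ndufaf8 at -0.030 in the lines against the knock-out with chromosome centring. Of the 84 members 74 read 10 or more on every array, so low signal bears on few of them, and 3 arrays per line limit the precision.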
